A study of Homo sapiens with 27 samples.

Results

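MCF10A cells given oncostatin M (OSM) together with transforming growth factor beta (TGFB) were compared with MCF10A cells given epidermal growth factor (EGF) together with TGFB, 24 h after the ligands were added. The comparison rests on 6 of the study's 27 RNA-seq libraries, 3 for each treatment, chosen by their treatment labels and not by any measured value. MCF10A is an immortalised line of human breast epithelium that does not form tumours, so all libraries share 1 genetic background. Both groups had been grown in serum-containing medium with hydrocortisone, cholera toxin, insulin and 20 ng/ml EGF, then seeded on collagen, kept for 18 h without growth factors and given fresh growth factor-free medium with the ligands, each at 10 ng/ml. Both groups therefore contained TGFB at the same dose, and they differed in whether OSM or EGF came with it. For context, 3 libraries each of TGFB alone, OSM alone, EGF alone, phosphate-buffered saline (PBS) and the triple combination EGF+OSM+TGFB were used, all at 24 h. The remaining libraries were EGF+OSM at 24 h and cells without added ligand at 0 h (T0). They entered the joint fit of all 27, which set the low-count filter, the scaling and the estimate of spread. The labels name no batch and do not say whether replicates came from separate cultures, so p-values measure the spread between these libraries, which may be technical.

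OSM is a cytokine of the interleukin-6 family. It binds a receptor made of gp130 (gene IL6ST) with OSMR or LIFR, and signals through JAK kinases to STAT3, with SOCS3 as the classical feedback inhibitor. EGF binds the receptor tyrosine kinase EGFR and acts through RAS, ERK and PI3K, and MCF10A cells depend on it for growth in routine culture. TGFB binds TGFBR2 and TGFBR1 and acts through SMAD2, SMAD3 and SMAD4. In mammary epithelium it is known for slowing the cell cycle, for matrix production and for epithelial-mesenchymal transition (EMT), the partial or full exchange of epithelial for mesenchymal features.

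Promoters of 6 genes that the results turn on are shown first, each as the 300 bases from 250 before to 50 after the RefSeq transcription start, 5′ to 3′ on the gene's strand (GRCh38.p14). Capitals mark matches to a short word searched on both strands. BCL6 and CFB, higher with OSM+TGFB, show TTCNNNGAA, the core of STAT binding sites. The windows are chr3:187745419-187745718 on the minus strand and chr6:31945845-31946144 on the plus strand.
BCL6: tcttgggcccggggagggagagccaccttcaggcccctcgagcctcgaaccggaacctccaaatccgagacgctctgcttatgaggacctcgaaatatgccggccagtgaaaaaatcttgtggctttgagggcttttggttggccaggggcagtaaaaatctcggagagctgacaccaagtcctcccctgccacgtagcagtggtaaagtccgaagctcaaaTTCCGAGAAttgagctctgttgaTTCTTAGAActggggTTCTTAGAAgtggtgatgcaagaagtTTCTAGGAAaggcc
CFB: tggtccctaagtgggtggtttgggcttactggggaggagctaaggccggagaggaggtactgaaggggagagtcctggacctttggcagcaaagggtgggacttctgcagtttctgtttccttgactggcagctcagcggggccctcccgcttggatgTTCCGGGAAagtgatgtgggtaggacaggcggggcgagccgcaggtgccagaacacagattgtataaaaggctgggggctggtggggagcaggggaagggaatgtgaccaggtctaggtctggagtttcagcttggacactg
CXCL8 and IVL, lower with OSM+TGFB, show TGANTCA, the AP-1 word. Their windows are chr4:73740319-73740618 and chr1:152908296-152908595, both on the plus strand.
CXCL8: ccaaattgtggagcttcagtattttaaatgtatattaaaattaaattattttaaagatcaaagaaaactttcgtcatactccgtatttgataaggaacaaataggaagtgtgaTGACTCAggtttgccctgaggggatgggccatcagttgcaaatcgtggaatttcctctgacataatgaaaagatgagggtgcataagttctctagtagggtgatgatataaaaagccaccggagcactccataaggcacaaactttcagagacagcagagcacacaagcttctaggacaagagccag
IVL: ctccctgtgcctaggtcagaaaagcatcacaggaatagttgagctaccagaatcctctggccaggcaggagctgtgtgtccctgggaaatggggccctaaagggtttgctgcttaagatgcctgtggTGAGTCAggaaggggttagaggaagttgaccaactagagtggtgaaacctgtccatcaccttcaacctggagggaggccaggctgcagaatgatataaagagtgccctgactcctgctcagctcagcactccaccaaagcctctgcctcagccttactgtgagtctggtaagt
MCM6 and PLK1 stand for the DNA replication and mitosis genes, which were lower with OSM+TGFB. MCM6 (chr2:135876394-135876693, minus strand) shows TTTGGCGC, 1 of the 2 E2F words searched, and PLK1 (chr16:23678639-23678938, plus strand) shows TTTGAA, the word known as the cell cycle homology region.
MCM6: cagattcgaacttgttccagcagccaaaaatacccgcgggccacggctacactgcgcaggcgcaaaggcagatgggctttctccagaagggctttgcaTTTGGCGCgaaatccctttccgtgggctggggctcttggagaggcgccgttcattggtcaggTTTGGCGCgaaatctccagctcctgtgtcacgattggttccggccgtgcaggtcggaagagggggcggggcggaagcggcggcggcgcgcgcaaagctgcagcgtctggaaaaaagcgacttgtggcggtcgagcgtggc
PLK1: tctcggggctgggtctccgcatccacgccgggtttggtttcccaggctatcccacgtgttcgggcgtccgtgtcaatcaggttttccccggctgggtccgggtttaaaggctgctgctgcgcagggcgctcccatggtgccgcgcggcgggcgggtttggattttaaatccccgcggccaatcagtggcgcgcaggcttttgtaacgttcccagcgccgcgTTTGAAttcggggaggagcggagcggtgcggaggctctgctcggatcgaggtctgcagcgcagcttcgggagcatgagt

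Among 11389 tested protein-coding genes with such a window, TTCNNNGAA occurred in 6.30%, TGANTCA in 5.15%, TTTGAA in 10.1%, and TTTGGCGC or TTTCCCGC in 3.55%. No searched word contains another, and TTCNNNGAA and TGANTCA read the same on both strands. BCL6 held 4 TTCNNNGAA matches, from 28 bases before to 37 bases after the start, and CFB held 1 that began 92 bases before it. The single TGANTCA match began 137 bases before the start in CXCL8 and 123 in IVL. TTTGGCGC began 152 and 90 bases before the start in MCM6, and TTTGAA began 29 bases before it in PLK1. By gene list, TTCNNNGAA was in 3 of 10 windows of STAT3 target genes and TGANTCA in 9 of 19 of squamous differentiation genes. TTCNNNGAA was also in 4 of 14 windows of interferon-stimulated genes and in 1 of 15 of JAK, STAT and SOCS genes. TGANTCA was in 1 of 12 windows of ERK target genes, and in 4 of 10 of the largest rises and 4 of 8 of the largest falls. The E2F words were in 12 of 20 windows of DNA replication genes, and TTTGAA was in 13 of 20 of mitosis genes. A match describes these letters and is not a binding site.

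The unit of all levels is CPM, a gene's counts divided by the library size in units of 1 M, after scaling by edgeR's TMM factors. Totals ran from 39.5 to 40.1 M counts with OSM+TGFB and from 30.1 to 52.9 M with EGF+TGFB. The biological coefficient of variation was 10.1%, and no 2 libraries agreed within sampling noise. Mitochondrial transcripts took 1.44% of counts with OSM+TGFB and 1.62% with EGF+TGFB, and the 10 most abundant rows took 10.3% and 9.46%. In each case the groups did not overlap, and the exact permutation test gave p = 0.1 (two-sided), the smallest that 3 against 3 allows. The part of these shares in the results was not tested. Mammary basal markers matched the labelled epithelium: 7 of 8 averaged at least 1 CPM over the 6 libraries, and their summed level was 20779 to 21962 CPM with OSM+TGFB and 14525 to 15636 with EGF+TGFB. Of 8 luminal markers 2 reached that level (sums 18.9 to 22.1 and 27.4 to 31.3 CPM), and PGR and KIT were at 0. Of 8 fibroblast markers 2, COL1A1 and DCN, reached it (sums 176 to 191 and 76.5 to 96.9 CPM), with COL3A1 and PDGFRA below it. Of 8 leukocyte markers CD14 and CD68 reached it (sums 68.2 to 75.1 and 29.4 to 32.3 CPM), while PTPRC was at most 0.112 CPM. The row used for HLA-DRA was at 0, but this gene has 7 rows in the table, and 3 of them held 0.232 to 0.421 CPM each with OSM+TGFB and 0 with EGF+TGFB. No endothelial marker averaged 1 CPM over all 6 libraries, though KDR (1.36 ± 0.225) and PECAM1 (1.03 ± 0.155) did with OSM+TGFB (SD, n = 3; list sums 3.45 to 4.21 and 1.34 to 1.95 CPM).

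The 2 treatments left widely different transcriptomes. With OSM+TGFB the cells had more transcript of most acute-phase and complement genes, all tested STAT3 targets, most hypoxia-responsive genes and the basal keratins KRT5 and KRT14. With EGF+TGFB they had more transcript of all tested DNA replication and mitosis genes and of most ERK target, cholesterol synthesis and squamous differentiation genes. Of 16611 rows tested with edgeR's quasi-likelihood test, 9190 (55.3%) passed a Benjamini-Hochberg adjusted p of 0.05. Of these, 4599 (27.7%) were higher and 4591 (27.6%) lower with OSM+TGFB. At least 2-fold differences were found in 1397 rows (8.41%) on the higher side and 913 (5.50%) on the lower side. The median log2 fold change over all tested rows was 0.01. Because most rows passed the threshold, the counts of each gene list are to be read against 27.7% higher and 27.6% lower. RNA was measured from whole cultures, so fewer cells of a kind and less RNA per cell cannot be told apart.

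The largest rises included genes of secreted defence and acute-phase proteins and of cornifying epithelia. FGL1, a fibrinogen-like secreted protein, was at 15.6, 19.1 and 14.8 CPM with OSM+TGFB and had no count in the 3 EGF+TGFB libraries, at least 632-fold higher against a floor of 3 counts over the group. LTF, the iron-binding protein lactoferrin, was at 7.54, 13.2 and 6.12 CPM against no count, at least 343-fold higher by the same floor. OLFM4, a secreted glycoprotein of mucosal epithelia, had 3047 counts over the OSM+TGFB group and 1 over the EGF+TGFB group, a ratio of 3337 with a 95% counting interval of 599 to 131857. In the EGF+TGFB group all of these lay under that floor.

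SERPINB4, a serine protease inhibitor of squamous epithelia (ENSG00000206073, chr18:63637259-63644256, minus strand, GRCh38), was at 392, 488 and 372 CPM with OSM+TGFB and at 0.633, 0.993 and 0.72 with EGF+TGFB. Its log2 fold change was 9.01 ± 0.33 (SE; adjusted p = 9.2e-15). SERPINB3, its near-identical neighbour, differed by 6.49 ± 0.27 (adjusted p = 7.3e-14), and reads of the pair may have been divided between them. The other genes among the 15 largest rises were HP, DIO2, CASP14, GJA1, S100A7A, MMP3, C1R, C1S, IP6K3 and SLURP2, with log2 fold changes from 6.07 (SLURP2) to 8.47 (HP). Their functions were diverse: CASP14 is a caspase of keratinocyte cornification, GJA1 the gap junction protein connexin 43, DIO2 a thyroid hormone-activating deiodinase and MMP3 stromelysin 1.

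The largest falls included a secreted protease, cytokines, hair-type keratins and cyclin D1. ADAMTS1, a secreted metalloproteinase (ENSG00000154734, chr21:26835755-26845409, minus strand), was at 0.168, 0.23 and 0.261 CPM with OSM+TGFB and 5.94, 5.84 and 6.38 with EGF+TGFB, a log2 fold change of -4.76 ± 0.29 (adjusted p = 2.7e-12). LIF, a cytokine that shares gp130 with OSM, was at 0.729, 0.949 and 1.19 CPM against 20.5, 23.1 and 18.6 (-4.44 ± 0.22, adjusted p = 5.6e-14). CXCL8, the neutrophil chemokine interleukin-8, was at 4.35, 5.61 and 4.87 CPM against 60.6, 57.7 and 45.3 (-3.46 ± 0.22, adjusted p = 1.7e-11). In all of these the 3 libraries of one treatment lay apart from the 3 of the other, as they did in 60.6% of all tested rows. DMBT1, CRCT1, CPA4, KRT81, PLCB4, DDAH1, INHBA, SPRR3, WNT7A, SCGB3A2, CCND1 and KRT86 completed the 15, from -3.48 (DMBT1) to -2.68 (KRT86). TGFB alone lay between the pairs for KRT81 and INHBA, but near or below OSM+TGFB for DMBT1 and WNT7A and above EGF+TGFB for SPRR3 and CPA4.

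**Figure D1:**
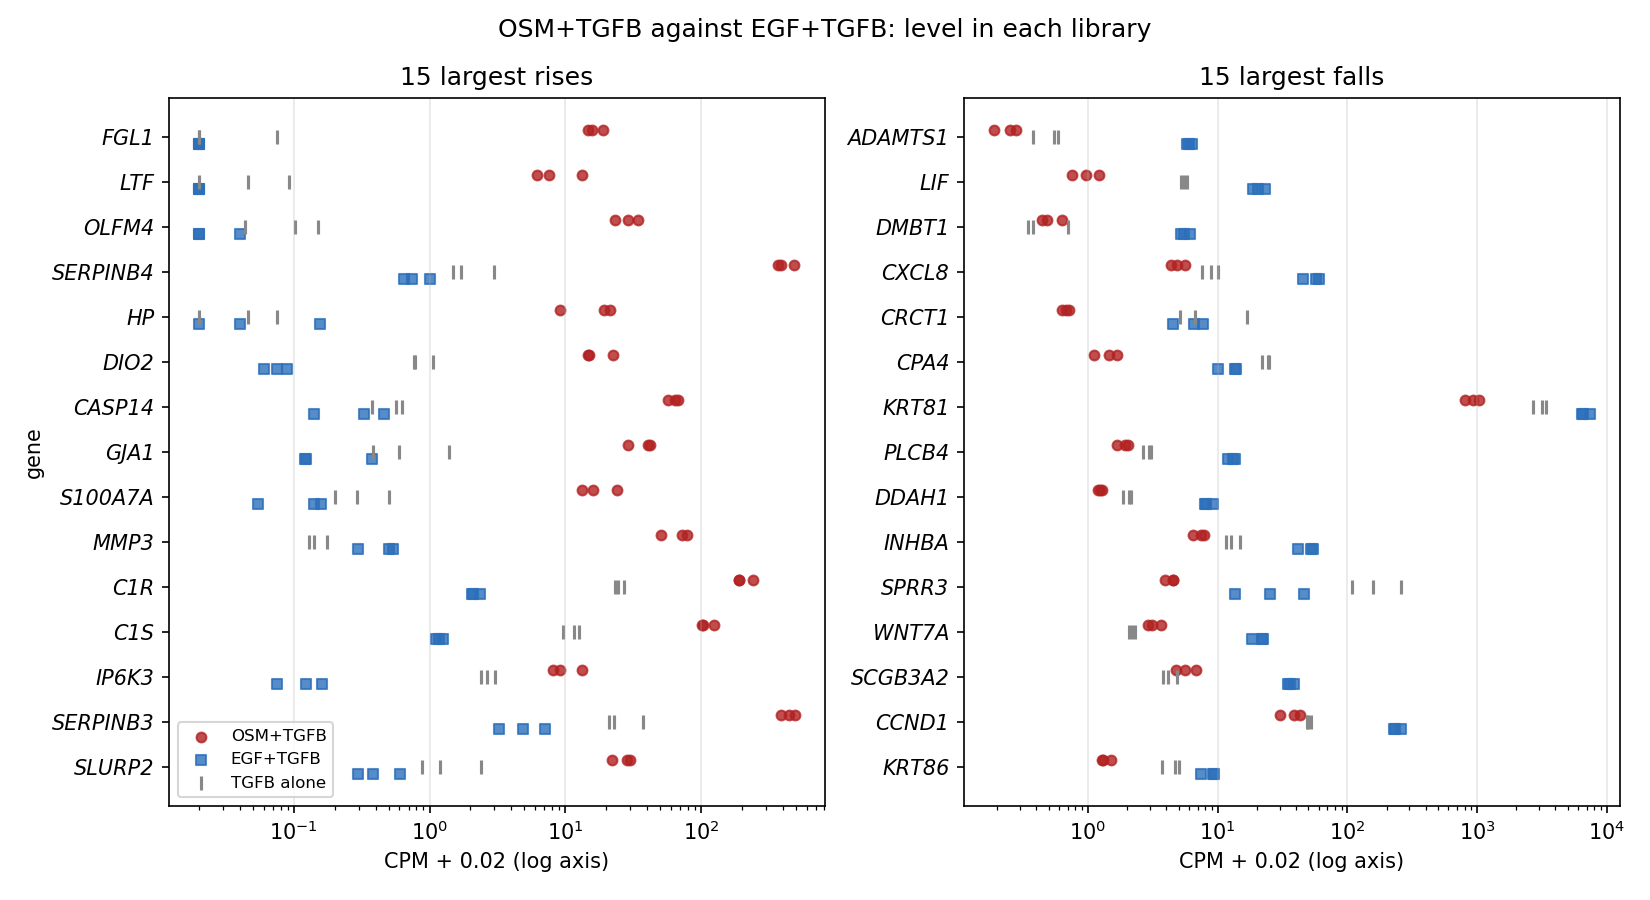
Level of the 15 largest rises (left) and 15 largest falls (right) in each library, as CPM plus 0.02 on a log axis, with circles for OSM+TGFB, squares for EGF+TGFB and ticks for TGFB alone, 3 libraries each. Circles and squares do not overlap for any of the 30 genes, which was a condition of choosing them. TGFB alone lies at different places: for C1R it is between the pairs, with a mean of 25 CPM, and for SPRR3 it is above both, with a mean of 175 CPM.

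Absolute levels changed most in abundant genes. TGFBI, a secreted matrix protein named for its induction by TGFB, rose by the most CPM: 23255, 22339 and 23276 with OSM+TGFB against 12777, 13538 and 11601 with EGF+TGFB, a log2 fold change of 0.86 ± 0.09 (adjusted p = 2.9e-08). Others among the genes with the largest CPM differences were EEF1A1 (0.87) and KRT6A (0.99) on the higher side and KRT81 (-2.87) and ACTB (-0.58) on the lower side, all called. These 4 values are log2 fold changes of a gene with itself between treatments, and CPM values are not compared between genes here.

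The receptors of the ligands were themselves different. OSMR was at 826, 825 and 764 CPM with OSM+TGFB and 370, 350 and 298 with EGF+TGFB, a log2 fold change of 1.25 ± 0.07 (adjusted p = 6.2e-13). TGFB alone gave 165 ± 3.59 CPM (SD, n = 3), below both pairs. LIFR rose by 1.18 ± 0.13 (24.7, 24.3 and 19.9 against 10.8, 10.1 and 9.43 CPM), and IL6ST by 0.21 ± 0.05 (252, 266 and 253 against 238, 213 and 218 CPM). EGFR was not called (577, 600 and 594 against 568, 557 and 574 CPM, log2 fold change 0.06 ± 0.05, adjusted p = 0.38). The TGFB receptors went in opposite directions: TGFBR1 rose by 0.76 ± 0.06 (250, 270 and 276 against 166, 166 and 139 CPM), and TGFBR2 fell by 0.75 ± 0.07 (197, 184 and 197 against 339, 318 and 315 CPM). TGFB alone gave TGFBR2 at 196 ± 13.7 CPM (n = 3), from which OSM+TGFB was not called different (log2 fold change -0.02, adjusted p = 0.82).

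Within the gp130 system, every tested receptor but IL31RA was higher and every tested ligand lower with OSM+TGFB. Of 11 tested cytokine and receptor genes, 6 were higher and 5 lower. The higher included the receptor genes IL6R, OSMR, LIFR, IL11RA and IL6ST. The ligands LIF, IL6 (-1.14), IL11 (-0.80) and CLCF1 (-1.18) were all lower, as was the receptor IL31RA. IL6R was at 52.3, 49.2 and 41.8 CPM against 19.6, 16.3 and 21.5, and TGFB alone was above both at 114 ± 1.17 CPM (n = 3). OSM itself did not pass the low-count filter.

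SOCS3 marked the OSM arm. It was at 160, 163 and 140 CPM with OSM+TGFB and at 6.38, 7.32 and 5.35 with EGF+TGFB, a log2 fold change of 4.58 ± 0.13 (adjusted p = 8.2e-18; ENSG00000184557, chr17:78356778-78360077, minus strand). TGFB alone gave 3.03 ± 0.173 CPM (n = 3) and the triple combination 80.3 ± 6.27 CPM (n = 3). STAT3 rose by 1.20 ± 0.06 (553, 589 and 551 against 255, 253 and 227 CPM). Among 19 tested JAK, STAT and SOCS genes 10 were higher, with STAT2, STAT5A, STAT5B, STAT6 and CISH among them, and 3 were lower (SOCS2 -0.75, SOCS6 -0.52 and SOCS4 -0.25). The median of this list was 0.15.

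All 12 STAT3 target genes were higher with OSM+TGFB than with EGF+TGFB, with a median log2 fold change of 0.84. In OSM+TGFB 8 were higher than in TGFB alone (28.9% of all rows) and 2 lower (25.3%), with a median of 0.51. In EGF+TGFB 3 were higher than in TGFB alone (32.7% of all rows) and 9 lower (34.1%), with a median of -0.64. BCL6, a transcriptional repressor whose promoter is shown above, was at 67.6, 68 and 59.4 CPM against 9.88, 11.3 and 9.6 (2.66 ± 0.14, adjusted p = 3.8e-13). TGFB alone gave 61.7 ± 3.72 CPM (n = 3), so BCL6 was called lower with EGF+TGFB than with TGFB alone (-2.58) and was not called with OSM+TGFB (0.08, adjusted p = 0.63). TIMP1, an inhibitor of metalloproteinases, showed another pattern: 2797, 2758 and 3370 CPM with OSM+TGFB, 702, 731 and 722 with EGF+TGFB and 147 ± 9.28 (n = 3) with TGFB alone. It rose over TGFB alone in both pairs, by 4.33 and 2.28 on the log2 scale. MUC1 (2.44), CEBPD (2.08) and BCL3 (1.95) were the other members above 2-fold, and MCL1 had the smallest difference (0.18 ± 0.06, adjusted p = 0.021). The MCL1 call held without EGF+TGFB replicate 1 and was lost when any of the other 5 libraries was left out (0.13 to 0.16, adjusted p = 0.084 to 0.16).

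Acute-phase and complement genes had the largest median of the 34 lists. Of 19 tested, 17 were higher and none lower, with a median log2 fold change of 4.23, and 15 differed at least 2-fold. C1S, a serine protease of the first complement component, was at 102, 126 and 104 CPM with OSM+TGFB and 1.16, 1.09 and 1.23 with EGF+TGFB (6.58 ± 0.20, adjusted p = 6e-17). SERPINA1, alpha-1 antitrypsin, was at 946, 951 and 999 CPM against 19.8, 19.7 and 18.2 (5.65 ± 0.10, adjusted p = 3.4e-22). CFB, complement factor B, was at 46.5, 66.9 and 45.2 CPM against 0.935, 1.4 and 1.13 (5.49 ± 0.29). HP (haptoglobin), SERPINA3, SERPING1, SAA1, SAA2 and C3 were also higher. SAA1 and SAA2 share sequence, and CFB, C1R and SERPINA1 have several rows in the table, so their split is uncertain. LCN2 (0.72 ± 0.40, adjusted p = 0.14) and A2M were not called, although A2M was called without OSM+TGFB replicate 3 (1.42, adjusted p = 0.042).

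Most of these genes were lower in EGF+TGFB than in TGFB alone. C1S was at 11.3 ± 1.49 CPM with TGFB alone (n = 3), rose by 3.29 with OSM+TGFB and fell by 3.29 on the log2 scale with EGF+TGFB. In this list 15 of 19 members were called higher in OSM+TGFB than in TGFB (28.9% of all rows) and 2 lower (25.3%). In EGF+TGFB against TGFB, 2 were higher (32.7% of all rows) and 11 lower (34.1%). Both of these contrasts use the same TGFB libraries. SERPINA1 did not follow that pattern, since it was higher than TGFB alone (11.7 ± 2.27 CPM, n = 3) in both pairs, by 6.37 and 0.72.

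The SERPINB and S100 genes, which encode keratinocyte protease inhibitors and calcium-binding alarmins, divided by member. Of 17 tested, 10 were higher and 6 lower with OSM+TGFB. S100A8 was at 1167, 1391 and 1395 CPM against 22.3, 25.2 and 38.6 (5.53 ± 0.20, adjusted p = 4.6e-15), and its partner S100A9 at 2402, 2858 and 2815 against 67.2, 81.1 and 107 (4.99 ± 0.19). S100A12, S100A7 and SERPINB13 were also at least 2-fold higher. S100A2, S100A6, S100A14, S100A16, SERPINB5 and SERPINB7 fell by 0.19 to 1.17 on the log2 scale. The leukocyte marker CD14 rose with these genes (22.9, 28.9 and 24.6 against 1.79, 1.7 and 2.19 CPM), and so did CD68 (45, 45.3 and 50.4 against 27.4, 30.4 and 29.7 CPM). Of the 4 leukocyte markers tested, 2 were higher and 0 lower. PTPRC, CD3E, LYZ and ITGAM were at most 0.168 CPM in all 6 libraries. The part of leukocyte transcripts in these results was not tested.

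Genes downstream of ERK were mostly lower with OSM+TGFB than with EGF+TGFB. Of 20 ERK targets and MAPK feedback genes, 12 were lower and 4 higher with OSM+TGFB, with a median of -0.79. Most were above TGFB alone in both pairs. In OSM+TGFB 14 were higher than in TGFB (28.9% of all rows) and 3 lower (25.3%), with a median of 0.71. In EGF+TGFB 16 were higher (32.7% of all rows) and 2 lower (34.1%), with a median of 1.65. DUSP4, a phosphatase that acts on ERK, was at 87.7, 72.6 and 102 CPM with OSM+TGFB and 307, 291 and 269 with EGF+TGFB (-1.73 ± 0.15, adjusted p = 3.8e-09). ETV4, an ETS factor induced by ERK, was at 2.58, 1.9 and 3.42 CPM against 13, 14.6 and 17.4 (-2.51 ± 0.23). SPRY4, an inhibitor of receptor tyrosine kinase signalling, was at 28.5, 24.2 and 36.7 CPM against 92, 84.6 and 88.6 (-1.57 ± 0.17). Its level with TGFB alone was 8.15 ± 0.527 CPM (n = 3), so it was higher in both pairs.

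Not all of these genes followed. DUSP6, an ERK-specific phosphatase, did not separate the treatments (66.5, 57.1 and 63.9 against 62.6, 58.5 and 62.2 CPM, 0.03 ± 0.17, adjusted p = 0.89), although both pairs were above TGFB alone (10.4 ± 0.21 CPM, n = 3). MYC was not called either (0.02 ± 0.09, adjusted p = 0.85). EGR1, an immediate-early factor, was higher with OSM+TGFB (97.2, 91.9 and 99.6 against 45.5, 46.7 and 52.9 CPM, 0.99 ± 0.17), as were SPRY1 and SPRED3.

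The cells' own EGF family ligands were lower with OSM+TGFB: 6 of 8 were called lower and none higher, with a median of -0.69. AREG, amphiregulin, was at 24.6, 20.9 and 33.5 CPM against 129, 110 and 176 (-2.39 ± 0.23, adjusted p = 3.4e-08). HBEGF was at 21.6, 24 and 26.8 CPM against 64.5, 77.4 and 63.1 (-1.50 ± 0.10), and with TGFB alone at 21 ± 2.35 (n = 3). TGFA, BTC, EPGN and EGF fell by 0.62 to 1.06 on the log2 scale, and NRG1 and EREG were not called. The call of BTC was lost without OSM+TGFB replicate 1 (-0.49, adjusted p = 0.065), and that of EGF without either replicate 1 or 2 of OSM+TGFB or replicate 1 or 3 of EGF+TGFB (-1.22 to -0.86, adjusted p = 0.052 to 0.15). EREG was called without EGF+TGFB replicate 1 (-0.66, adjusted p = 0.038) or 2 (-0.69, adjusted p = 0.029). Of 8 tested ERBB receptors and regulators, 5 were higher and 1 lower. ERRFI1, an inhibitor of EGFR, led them (342, 346 and 292 against 106, 105 and 92.9 CPM, 1.69). LRIG1, which lowers ERBB receptor levels, its relatives LRIG2 and LRIG3 and the receptor ERBB3 (0.40) were the others, and the ubiquitin ligase CBL was lower (-0.32). The ERBB3 call was lost without replicate 1 or 2 of OSM+TGFB or replicate 1 or 3 of EGF+TGFB (0.30 to 0.36, adjusted p = 0.096 to 0.16).

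**Figure D2:**
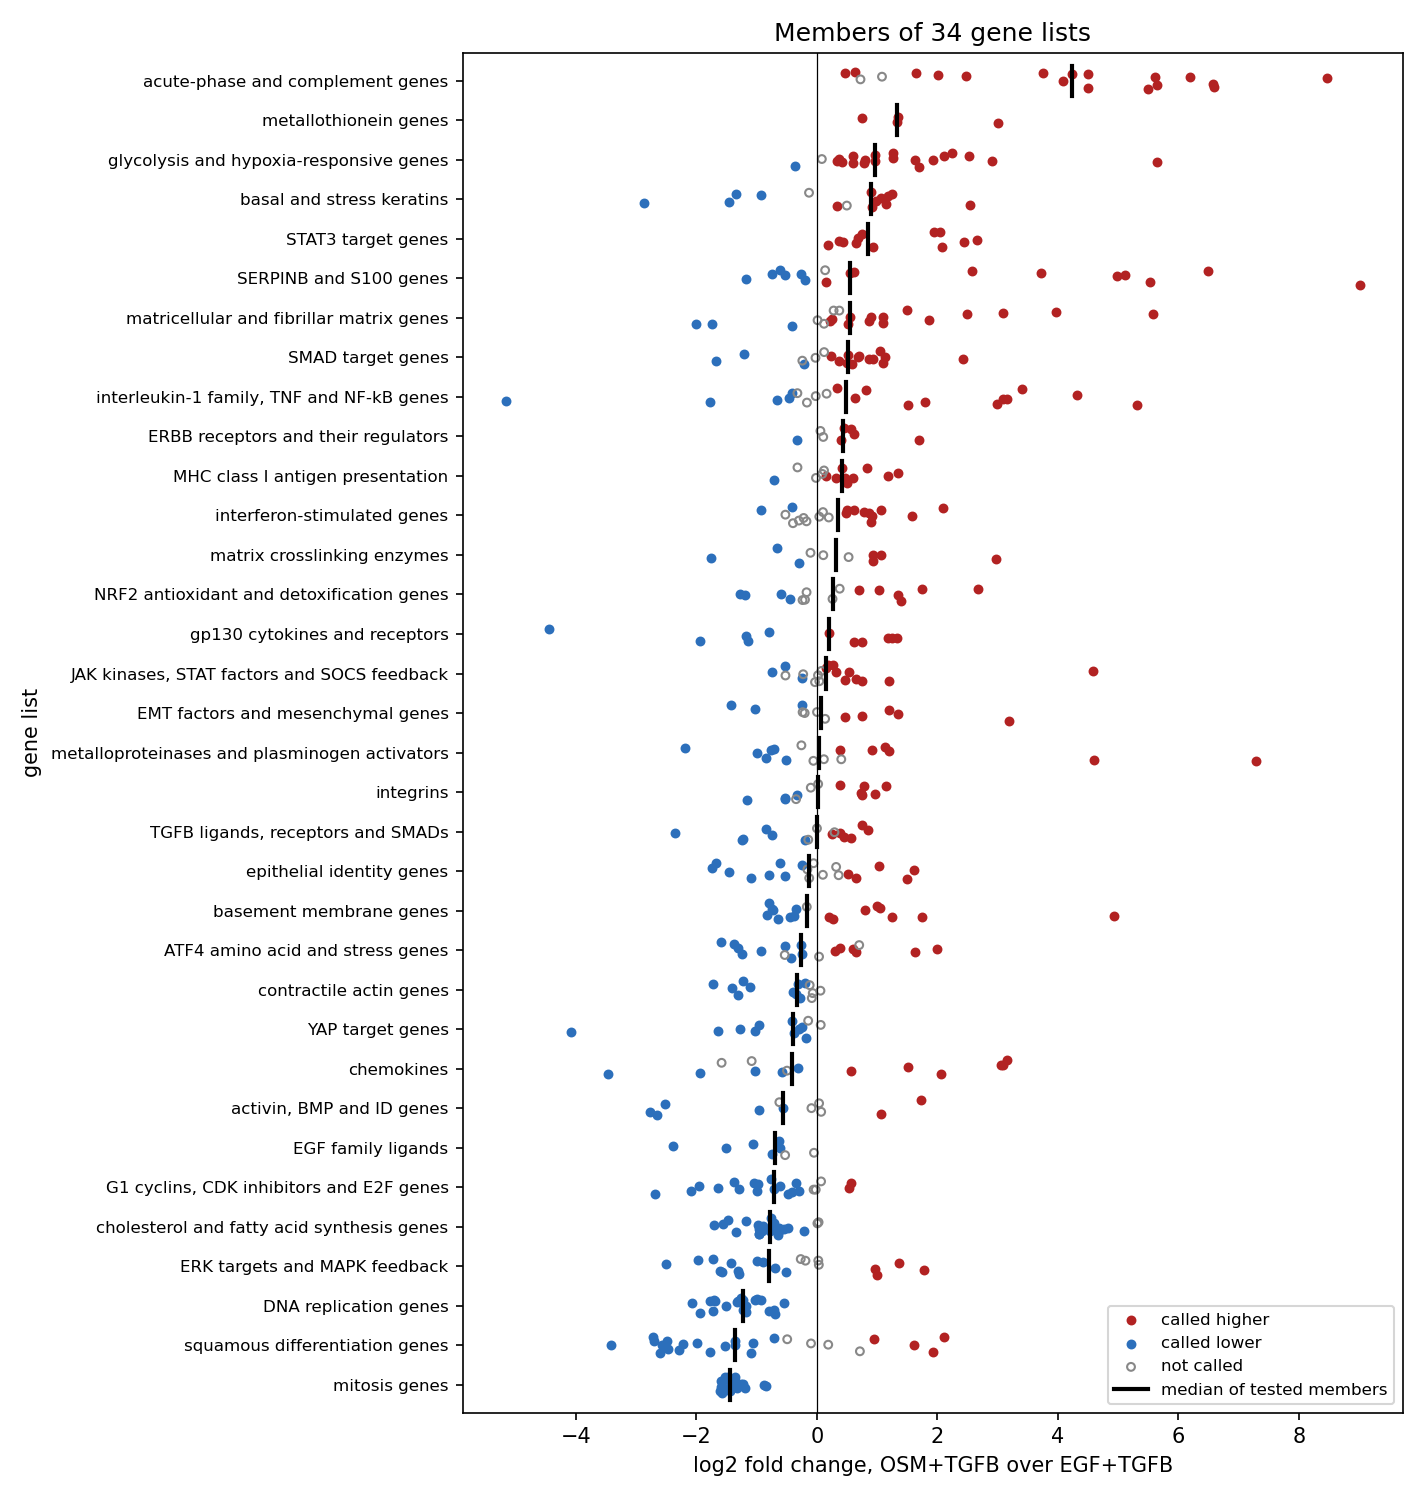
Log2 fold change of OSM+TGFB over EGF+TGFB (horizontal axis) for each tested member of 34 gene lists (rows, ordered by median). Filled points passed an adjusted p of 0.05, open points did not, and the bar is the median, from 4.23 for acute-phase and complement genes to -1.45 for mitosis genes. Fitted values of members with 3 or fewer counts in a group depend on a small prior count, and setting these to a floor of 3 counts left every printed median as it was.

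SMAD target genes, the classical readout of TGFB, did not all move one way. PMEPA1, a feedback inhibitor of SMAD signalling, was not called (770, 727 and 712 against 783, 791 and 670 CPM). Of 19 tested SMAD target genes, 13 were higher and 3 lower with OSM+TGFB, with a median of 0.52. The higher genes included KLF10 (1.13), SMAD6 (1.04), ITGB6 (0.94), TGFBI, TGM2 (0.69) and SMAD7 (0.50). CCN2, connective tissue growth factor, went the other way at 42.9, 45.2 and 50 CPM against 153, 156 and 128 (-1.67 ± 0.11, adjusted p = 9.2e-12). With TGFB alone CCN2 was at 28.2 ± 0.982 CPM (n = 3), below both pairs.

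TGFB pathway components were divided evenly, with 6 of 15 tested higher, 6 lower and a median of 0.00. The ligand TGFB2 was at 3.9, 5.38 and 4.64 CPM with OSM+TGFB and 27.4, 27.1 and 16.8 with EGF+TGFB (-2.36 ± 0.24, adjusted p = 2.2e-08), while TGFB1 was higher (0.44). LTBP1, which stores latent TGFB in the matrix, was at 1009, 891 and 952 CPM against 573, 526 and 480 (0.85 ± 0.08). SMAD3 (0.56) and SMAD4 (0.24) were higher, and the ubiquitin ligase SMURF2 (-1.23) and the co-receptor TGFBR3 (-1.25) lower. In the activin, BMP and ID list 2 of 11 were higher and 5 lower. INHBA, the activin A subunit, was at 6.42, 7.37 and 7.83 CPM against 54.4, 52 and 41.5 (-2.77 ± 0.18), and FST, the activin antagonist follistatin, fell with it (-2.52 ± 0.23). ID1 (1.07) and ID2 (1.73), inhibitors of differentiation downstream of BMP, were higher.

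EMT genes were split between the pairs. SNAI1, the transcription factor Snail (ENSG00000124216, chr20:49982980-49988886, plus strand), was at 53.5, 51.4 and 54.3 CPM with OSM+TGFB and 6.44, 5.84 and 5.11 with EGF+TGFB (3.19 ± 0.12, adjusted p = 6.7e-16). TGFB alone gave 0.551 ± 0.171 CPM (n = 3), so both pairs were higher than it, by 6.57 and 3.38 on the log2 scale. CDH2, N-cadherin, had the opposite order at 38.7, 33.6 and 38.2 CPM against 105, 102 and 88.5 (-1.42 ± 0.08, adjusted p = 1.1e-12). VIM, vimentin, was not called (1727, 1542 and 1570 against 1648, 1642 and 1541 CPM, 0.00 ± 0.07, adjusted p = 0.98), and neither were ZEB1 (-0.20 ± 0.14, adjusted p = 0.24) or SNAI2 (0.14 ± 0.06, adjusted p = 0.077). Over 12 tested genes, 5 were higher and 3 lower.

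Several epithelial adhesion genes were lower and some epithelial transcription factors higher: of 19 tested identity genes, 8 were lower and 5 higher. CDH1, E-cadherin, was at 372, 444 and 409 CPM with OSM+TGFB and 607, 669 and 491 with EGF+TGFB (-0.53 ± 0.13, adjusted p = 0.0012). EPCAM (-1.74), CLDN4 (-1.67), CLDN1 (-1.46) and OCLN (-1.09), which encode adhesion and tight junction proteins, were lower. CDH3, P-cadherin of basal cells, was higher at 2287, 2484 and 2222 against 781, 841 and 657 CPM (1.62 ± 0.10, adjusted p = 5.9e-12), as were the factors GRHL1, GRHL3 and KLF5.

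Matricellular and fibrillar matrix genes were more often higher with OSM+TGFB, in 14 of 21 tested against 3 lower. TNC, tenascin C (ENSG00000041982, chr9:115019575-115118207, minus strand), was at 3600, 3949 and 4117 CPM against 1164, 1208 and 827 (1.87 ± 0.16, adjusted p = 2.3e-09), and at 172 ± 7.3 CPM with TGFB alone (n = 3). FN1, fibronectin, rose by less (9276, 8548 and 8449 against 6610, 6085 and 5288 CPM, 0.55 ± 0.17, adjusted p = 0.011). Without EGF+TGFB replicate 3, the lowest library, FN1 was not called (0.43, adjusted p = 0.071). POSTN, periostin, was at 58.1, 45.6 and 59.6 CPM against 22.8, 19.3 and 16.1 (1.49 ± 0.20). THBS1 (-2.01) and CCN1 (-1.73), which encode matricellular proteins, were lower, and THBS1 read 479, 480 and 772 CPM against 2292, 2348 and 2345. DCN, decorin, is also on the fibroblast marker list. It was at 90.4, 103 and 89.7 CPM against 11.8, 11.7 and 9.6 (3.09 ± 0.12), and at 96.2 ± 1.53 CPM with TGFB alone (n = 3). Of 5 fibroblast markers tested, 4 were higher with OSM+TGFB and 0 lower: DCN, PDGFRB (1.38), LUM (2.40) and COL1A1 (0.26). LUM and COL1A1 lost their calls without replicate 1 or 2 of OSM+TGFB or replicate 1 or 3 of EGF+TGFB (LUM 1.94 to 2.29, adjusted p = 0.051 to 0.077, and COL1A1 0.14 to 0.25, adjusted p = 0.057 to 0.25). PDGFRB was at most 0.46 CPM, LUM 0.316, PDGFRA 0.173, DPT 0.115 and COL3A1 0.058 in the 6 libraries. The part of fibroblast transcripts in these results was not tested.

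Basement membrane genes were divided evenly, 8 higher and 8 lower of 17. LAMA3 (-0.79) and LAMB3 (-0.83), which encode adhesive laminin chains of stratified and mammary epithelium, were lower. LAMA3 read 4342, 4211 and 4682 CPM against 8155, 7697 and 6987. The hemidesmosomal collagen COL17A1 was higher (2869, 2739 and 2620 against 1434, 1382 and 1286 CPM, 1.00 ± 0.08), as were COL7A1 (1.05) and LAMA5 (0.81). Both LAMA3 and LAMB3 were above TGFB alone in both pairs.

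Matrix crosslinkers, integrins and proteases also divided by gene. LOX, lysyl oxidase, was at 417, 443 and 289 CPM against 56.6, 49.7 and 39.3 (2.98 ± 0.18, adjusted p = 2.3e-11), and LOXL2 was higher too (1.07). LOXL3 (-1.75) and LOXL1 (-0.66) were lower, and the list had 4 higher and 3 lower of 10. Of 13 integrins 6 were higher and 4 lower. ITGAV rose by 0.96 ± 0.07 and its partner ITGB3 by 1.15 ± 0.21 (126, 131 and 119 against 63.1, 65.7 and 40.1 CPM), whereas ITGA6 was lower (-0.52) and its partner ITGB4 higher (0.73). Among 16 metalloproteinases and plasminogen activators 6 were higher and 6 lower. MMP3 was at 79.1, 72 and 50.7 CPM against 0.275, 0.486 and 0.514 (7.29 ± 0.29), and MMP9, gelatinase B, at 19.9, 24.3 and 24.1 against 100, 118 and 94 (-2.20 ± 0.22). PLAU, urokinase, was lower (-0.76).

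Contractile actin genes and YAP targets were lower with OSM+TGFB. Of 14 contractile genes 10 were lower and none higher (median -0.33), and of 12 YAP target genes 10 were lower and none higher (median -0.40). TAGLN, transgelin of actin stress fibres, was at 278, 298 and 374 CPM against 1129, 1209 and 803 (-1.72 ± 0.19, adjusted p = 1.2e-07). ACTA2, smooth muscle actin, was not called (10.4, 9.81 and 8.07 against 9.77, 9.63 and 7.68 CPM). F3, tissue factor, was at 278, 282 and 353 CPM against 793, 747 and 659 (-1.27 ± 0.12), and ANKRD1 at 0.0561, 0.0575 and 0.058 against 0.963, 1.01 and 1.1 (-4.09 ± 0.48). YAP1 itself was not called (0.06). Relative to TGFB alone, 12 of the 14 contractile genes were higher in OSM+TGFB (28.9% of all rows) and 12 in EGF+TGFB (32.7%). Their medians were 0.90 and 1.44.

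Keratins changed in composition. Of 15 tested keratins of the basal and stress list, 9 were higher with OSM+TGFB and 4 lower. KRT5 was at 7251, 7712 and 8124 CPM against 3315, 3468 and 3463 (1.17 ± 0.06, adjusted p = 5.6e-14), and its basal partner KRT14 at 2363, 2444 and 2824 against 1072, 1219 and 1142 (1.15 ± 0.10). TP63, the master factor of basal identity, was at 193, 199 and 192 CPM against 89.2, 85.8 and 84.3 (1.17 ± 0.05). KRT6A, KRT6B, KRT6C, KRT16 and KRT17 were also higher, with reads of the KRT6 copies open to misassignment. KRT81, a hair-type keratin (ENSG00000205426, chr12:52285913-52291534, minus strand), was at 799, 931 and 1039 CPM against 6378, 7364 and 6541 (-2.87 ± 0.15, adjusted p = 1.6e-12), and the simple-epithelial KRT7 was lower (-0.93). KRT81 and KRT86 share sequence.

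Squamous differentiation genes were lower with OSM+TGFB, 17 of 25 tested against 4 higher, with a median of -1.36. IVL, involucrin, was at 27.5, 24.6 and 25.5 CPM against 83.6, 100 and 81 (-1.77 ± 0.15, adjusted p = 2.1e-09). SPRR1B was at 16.3, 19.8 and 16.3 CPM against 65.2, 79.6 and 111 (-2.28 ± 0.21), and KRT4 and KRT13, keratins of stratified non-cornified epithelia, fell by 3.42 and 2.61. The EGF+TGFB libraries were uneven here: SPRR3 read 13.6, 25.5 and 46.2 CPM in replicates 1 to 3 and KRT4 1.16, 3.14 and 10.4. SPRR genes are close copies, and reads of one may have been counted for another. TGM1 (1.92), CALML3 (2.10), FLG (1.61) and SPRR2A (0.95), which also belong to terminal differentiation, were higher. SPRR2A was not called without EGF+TGFB replicate 1 (0.73, adjusted p = 0.062) or OSM+TGFB replicate 2 (0.75, adjusted p = 0.061). Both pairs were far below TGFB alone, with medians of -3.94 in OSM+TGFB and -2.72 in EGF+TGFB. In OSM+TGFB 24 of 25 genes were called lower (25.3% of all rows), and in EGF+TGFB 25 of 25 (34.1%).

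Chemokines and other inflammatory genes had no common direction. Of 14 tested chemokines, 6 were higher and 5 lower with OSM+TGFB. CCL20, which attracts CCR6-bearing leukocytes, was at 27, 30.5 and 28.3 CPM against 7.29, 6.73 and 6.58 (2.06 ± 0.13, adjusted p = 2.5e-12), opposite to CXCL8. Among 20 interleukin-1 family, TNF and NF-kB genes, 11 were higher and 5 lower. IL24 was at 20.5, 21.8 and 31.5 CPM against 0.743, 0.608 and 0.48 (5.31 ± 0.31). IL1R1, the signalling receptor of interleukin-1, was at 225, 223 and 228 against 28, 23.6 and 24.3 (3.16 ± 0.08, adjusted p = 1.6e-19). IL18, an interleukin-1 family cytokine, was lower (37.8, 47 and 48 against 151, 161 and 143 CPM, -1.78 ± 0.09). Interferon-stimulated genes were higher in 10 of 20 and lower in 2, with IFI44L at 6, 7.42 and 6.73 CPM against 1.82, 1.42 and 1.47. MHC class I antigen presentation genes were higher in 10 of 15 and lower in 1 (NLRC5, -0.72), with PSMB9 (1.34) and PSMB8 (1.18), immunoproteasome subunits, at the top. Both lie in the MHC region and have several rows in the table. With the rows of a symbol summed, the differences were 1.36 (adjusted p = 1.7e-06) and 0.72 (adjusted p = 6.2e-08), and the single PSMB8 row lost its call without EGF+TGFB replicate 2 (0.74, adjusted p = 0.073) or OSM+TGFB replicate 2 (0.94, adjusted p = 0.061). HLA-B read 89, 92.2 and 89.9 CPM against 66.4, 73.5 and 54.9 (0.47 ± 0.11), and HLA rows are subject to read sharing.

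No cell cycle gene of the replication or mitosis lists was an exception to one direction. All 23 DNA replication genes and all 24 mitosis genes were lower with OSM+TGFB, with medians of -1.23 and -1.45. MKI67, the proliferation antigen, was at 76.7, 80 and 113 CPM against 240, 219 and 358 (-1.60 ± 0.22, adjusted p = 3.7e-06), with the third library highest in both groups. CDC6, which loads the replicative helicase, was at 9.54, 9.49 and 15 CPM against 44.7, 42.5 and 55.7 (-2.07 ± 0.20, adjusted p = 2.2e-08). MCM6, a subunit of that helicase, was at 29.6, 27.2 and 37.2 CPM against 68.5, 65.8 and 86.1 (-1.23 ± 0.15). PLK1, a mitotic kinase, was at 23.5, 24.1 and 31.7 CPM against 67, 68.9 and 103 (-1.59 ± 0.19). The groups did not overlap for any of these 4 genes, as for 60.6% of all tested rows.

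The same genes were higher in both pairs than with TGFB alone. Over the mitosis list the median log2 difference from TGFB was 2.17 in OSM+TGFB and 3.58 in EGF+TGFB, with 24 of 24 genes called higher in each. Over the replication list the medians were 0.98 (21 of 23 higher) and 2.23 (23 of 23 higher). Of all rows, 28.9% were called higher in OSM+TGFB than in TGFB, and 32.7% in EGF+TGFB. MKI67 was at 13.9 ± 2.11 CPM with TGFB alone (n = 3) and at 280 ± 49.6 with EGF+OSM+TGFB (n = 3). CCND1, cyclin D1 (ENSG00000110092, chr11:69641156-69654474, plus strand), behaved differently: it was at 38.8, 30.1 and 42.8 CPM with OSM+TGFB and 233, 228 and 257 with EGF+TGFB (-2.68 ± 0.14, adjusted p = 7.7e-13). With TGFB alone it was at 50.4 ± 2.15 CPM (n = 3), so OSM+TGFB was lower than TGFB (-0.44, adjusted p = 0.0092) and EGF+TGFB higher (2.25). Of 21 G1 regulators 16 were lower and 2 higher, with E2F1 (-2.09), CCNE2 (-1.64) and CDK6 (-1.04) among the lower and the inhibitors CDKN1B (0.54) and RBL2 (0.56) as the higher. CDKN1A, p21, was not called (481, 470 and 409 against 464, 518 and 395 CPM).

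Metabolic lists differed in direction. Of 23 cholesterol and fatty acid synthesis genes, 21 were lower with OSM+TGFB and none higher, with a median of -0.78. FDPS, farnesyl diphosphate synthase, was at 221, 252 and 325 CPM against 726, 850 and 779 (-1.56 ± 0.15, adjusted p = 2e-08), and HMGCS1 at 116, 136 and 177 against 377, 437 and 381 (-1.48 ± 0.17). SREBF2 and SREBF1, which encode the factors that drive these genes, were not called (0.01 and 0.03). Glycolysis and hypoxia-responsive genes were higher in 19 of 21 cases and lower in 1 (PFKP, -0.36), with a median of 0.97. HIF1A (ENSG00000100644, chr14:61695513-61748259, plus strand) was at 1474, 1527 and 1466 CPM against 356, 341 and 342 (2.10 ± 0.05, adjusted p = 5e-20). CA9, carbonic anhydrase 9, was at 7.43, 6.47 and 6.56 CPM against 0.165, 0.0608 and 0.206 (5.65 ± 0.37), and NDRG1 at 1943, 1927 and 1752 against 261, 257 and 231 (2.91 ± 0.11). VEGFA (0.79) and SLC2A1 (1.27), a growth factor and a glucose transporter under hypoxia control, were higher as well. Oxygen was not a variable in the labels.

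All 4 tested metallothioneins were higher, led by MT1X at 314, 326 and 309 CPM against 40, 40.6 and 37.6 (3.004 ± 0.09, adjusted p = 1.4e-18). Of 18 genes of the ATF4 amino acid and stress list 6 were higher and 9 lower. The serine synthesis genes PHGDH (-1.32) and PSAT1 (-1.37) and the pseudokinase gene TRIB3 (-1.59) were lower, and DDIT4 (1.63) and VLDLR (1.99) higher. NRF2 target genes had 6 of 15 higher and 4 lower. The aldo-keto reductases AKR1B10 (2.67) and AKR1C3 (1.74) were higher and NQO1 (-1.28) lower, and the sign of this list's median (0.26) rested on 1 library: it was -0.02 without OSM+TGFB replicate 2.

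**Figure D3:**
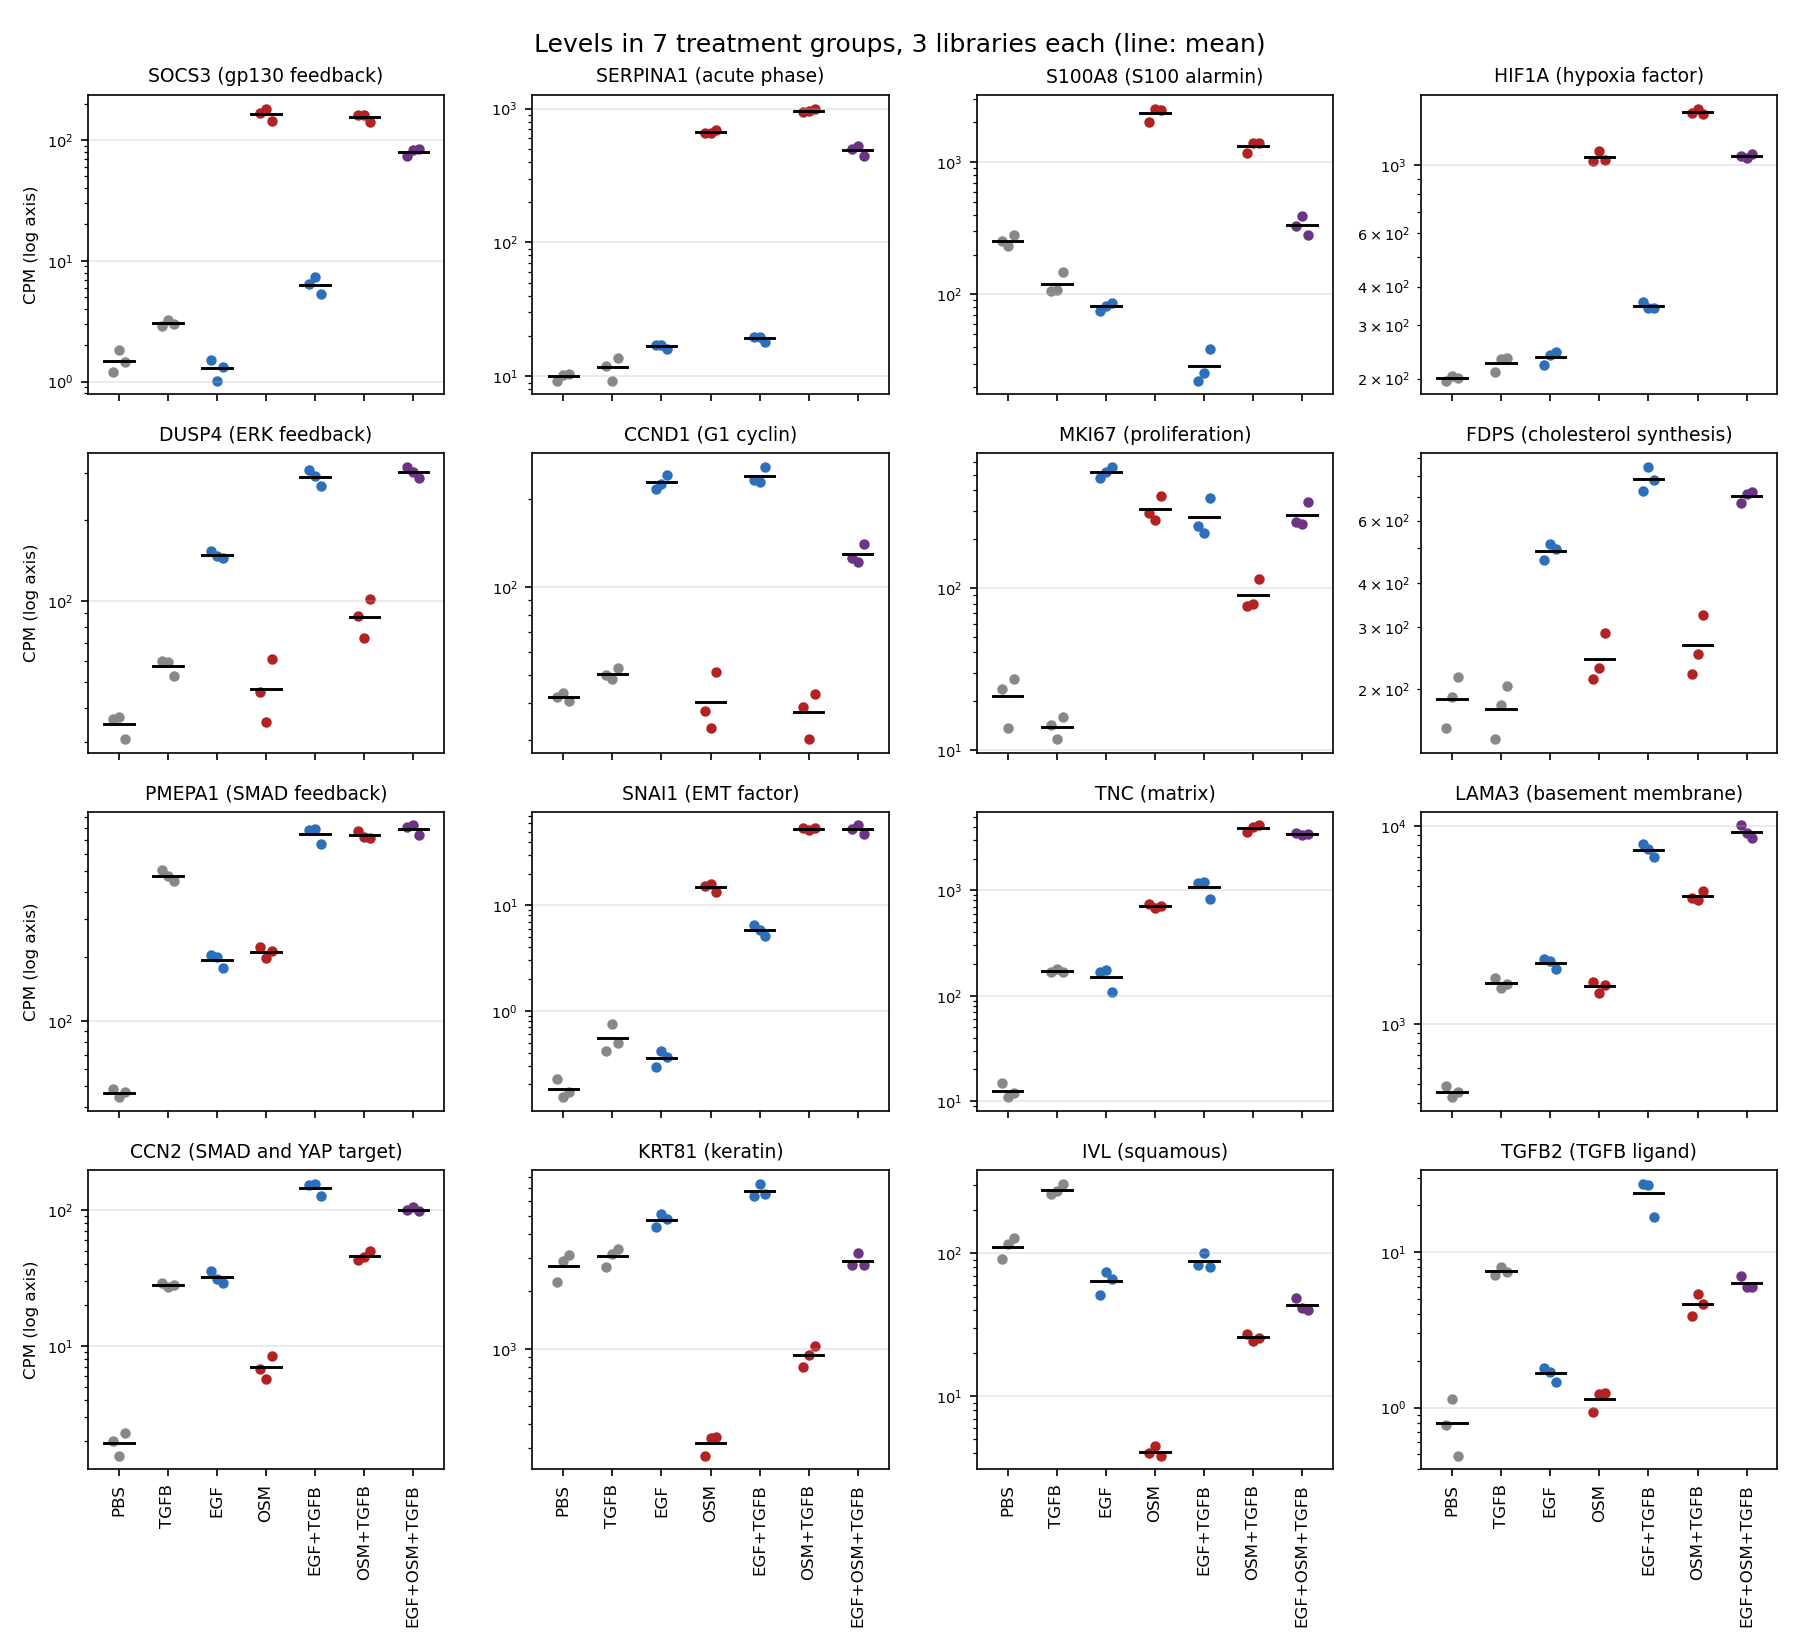
Level of 16 genes in 7 treatment groups at 24 h (CPM, log axis, 3 libraries a group, line at the mean). SOCS3, SERPINA1 and HIF1A are high in each group that contains OSM, CCND1 in each that contains EGF, with a mean of 129 CPM in the triple combination and 239 in EGF+TGFB, and TGFB2 in each that contains TGFB.

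The OSM-EGF contrast was next compared with and without TGFB. OSM against EGF without TGFB gave 9040 of 16611 rows called (54.4%), and the libraries of that contrast are not used in the one with TGFB. Both contrasts called 7342 rows, which is 79.9% of those called with TGFB and 81.2% of those called without. Of the rows called in both, 7251 had the same sign and 91 opposite signs. Across rows, log2 fold changes correlated with r = 0.750 over all rows and r = 0.911 over the 12123 rows with a mean count over 100. These rows are not independent replicates, and the libraries of both contrasts come from 1 study and were scaled and fitted together.

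The difference between the contrasts, an interaction term, was called for 1071 rows (6.45%), of which 517 (3.11%) were more positive and 554 (3.34%) more negative with TGFB. That split, 48.3% positive, depended on the fit: on the 12 libraries of the contrast alone, 890 rows were called, 260 of them (29.2%) positive, and the median difference of all rows moved to -0.07. Negative differences numbered 317 without EGF+TGFB replicate 2, 311 without OSM+TGFB replicate 1 and 360 without OSM replicate 2. At least 2-fold differences numbered 221 (1.33%).

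Several OSM-induced genes were separated less with TGFB present. SOCS3 had a log2 fold change of 4.58 with TGFB and 7.01 without (difference -2.43 ± 0.21, adjusted p = 1.3e-07). Its level was 165 ± 19.7 CPM in OSM alone (n = 3), and 1.28 ± 0.25 in EGF alone (n = 3), below each EGF+TGFB library. SNAI1 had a smaller contrast with TGFB too (3.19 and 5.36, difference -2.17 ± 0.23, adjusted p = 1.6e-06), with 14.9 ± 1.26 CPM in OSM alone and 0.359 ± 0.0652 in EGF alone (n = 3 each), below the respective pairs. CXCR1, a receptor of CXCL8, had the most negative difference (-3.43 ± 0.35): it was at 7.68, 8.63 and 6.24 CPM with OSM+TGFB and 20.1 ± 5.46 with OSM alone (n = 3). PRSS23 (1.79 with and 3.52 without), TP73 (1.86 and 3.59) and IL1RL1 (3.40 and 4.77) also had smaller contrasts with TGFB. DYSF, a membrane repair protein, was separated without TGFB (2.04) and not called with it (-0.21, adjusted p = 0.3).

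Other genes were separated by the ligands more with TGFB, or in the opposite direction. TGFB2 and ADAMTS1 were further apart with TGFB: TGFB2 had -2.36 with and -0.54 without (difference -1.82 ± 0.37, adjusted p = 0.0035), and ADAMTS1 -4.76 and -2.29 (difference -2.48 ± 0.40). ADAMTS9 was lower with OSM+TGFB than with EGF+TGFB (-1.02) and higher with OSM than with EGF (1.42). IL6 was lower with OSM+TGFB (2.13, 2.82 and 3.48 against 7.48, 6.38 and 4.66 CPM) and near 0 without TGFB, at 0.113 ± 0.0497 CPM in OSM and 0.0438 ± 0.0215 in EGF (n = 3 each). Its difference (-2.41, adjusted p = 0.011) was not called without OSM replicate 1 (-2.02, adjusted p = 0.13).

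BMF, a pro-apoptotic BH3-only protein, was at 62.7, 64.3 and 44.9 CPM with OSM+TGFB and 4.07, 3.32 and 2.26 with EGF+TGFB. Its contrast of 4.13 with TGFB exceeded that of 1.85 without (difference 2.28 ± 0.36, adjusted p = 0.00045), and TGFB alone was the highest of these groups at 149 ± 6.22 CPM (n = 3). IVL had the same sign in both but was further apart without TGFB (-1.77 and -3.95, difference 2.18 ± 0.23, adjusted p = 3.9e-06), with OSM alone at 4.11 ± 0.342 CPM (n = 3). MAPK4, SORL1, ATP1B1 and IRS1 were higher with OSM+TGFB than EGF+TGFB (0.60, 0.51, 0.80 and 0.50) and lower with OSM than EGF (-2.02, -1.42, -1.08 and -1.32). ATP1B1, a sodium pump subunit, read 129, 119 and 87.1 CPM with OSM+TGFB against 70.3, 61.7 and 59.7, and 15.7 ± 1.21 in OSM against 33.3 ± 1.18 in EGF (n = 3 each). FN1 changed sign as well, with 0.55 with TGFB and -0.86 without (difference 1.41 ± 0.25, adjusted p = 0.0011).

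**Figure D4:**
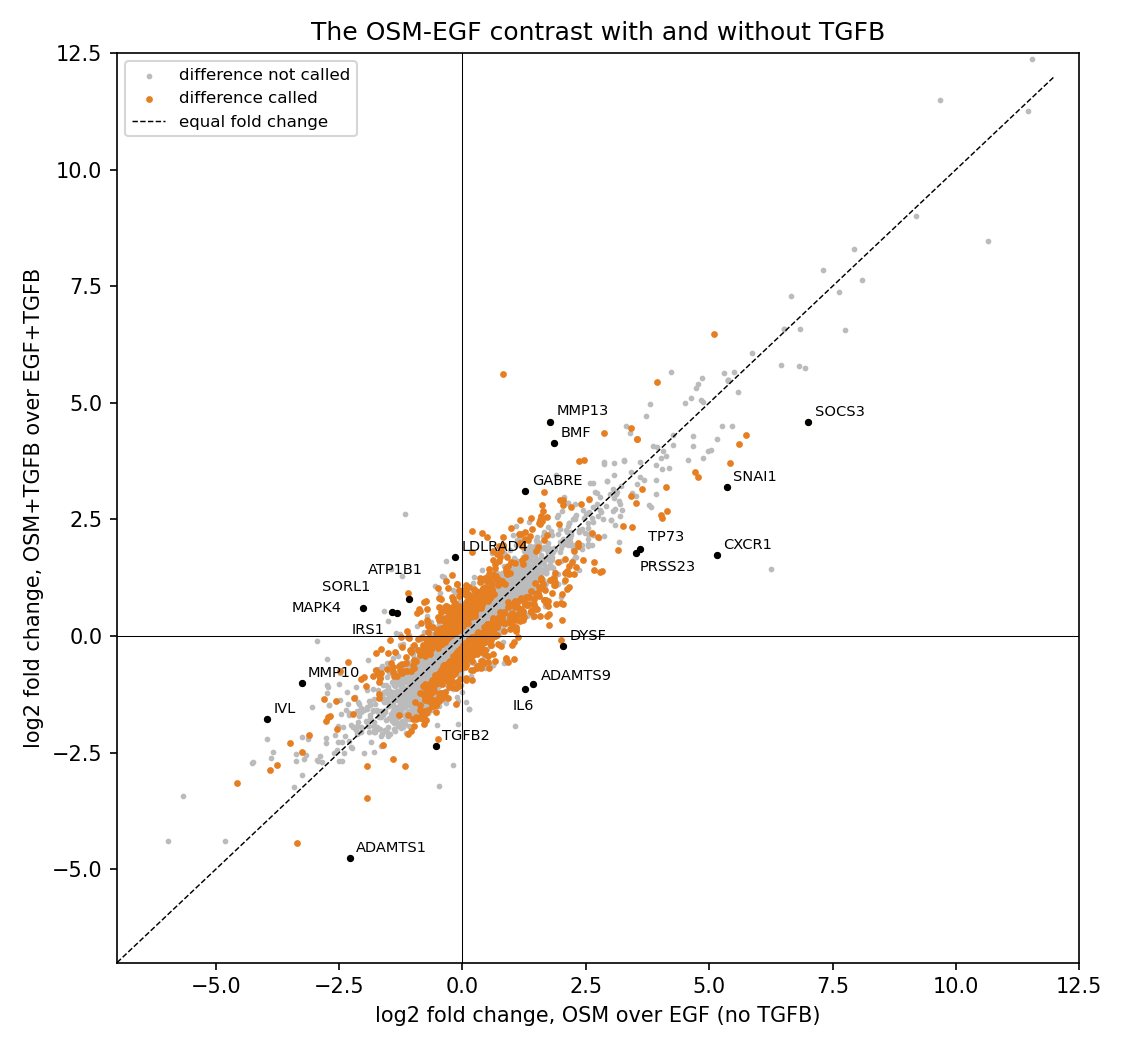
Log2 fold change of OSM over EGF without TGFB (horizontal axis) against that of OSM+TGFB over EGF+TGFB (vertical axis) for the 12123 rows with a mean count over 100. Orange rows passed the test of the difference between the contrasts, black labelled points are the 20 genes named by size of that difference whatever their mean count (IL6, ADAMTS1 and LDLRAD4 lie under 100), and the dashed line marks equal fold changes. Most rows lie along the line, with SOCS3, SNAI1 and CXCR1 below it and BMF, MMP13 and IVL above it.

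The lists that divided the pairs mostly divided the single ligands as well. STAT3 targets had a median of 0.84 with TGFB and 1.55 without, acute-phase genes 4.23 and 4.68, and hypoxia genes 0.97 and 0.81. On the lower side, replication genes had -1.23 and -0.92, mitosis genes -1.45 and -0.69, cholesterol genes -0.78 and -0.55, and squamous genes -1.36 and -2.73. In the mitosis list 20 of 24 genes were lower with OSM than with EGF (27.6% of all rows were). The difference between the contrasts was called for 1 of these 24 and for none of the 23 replication genes, against 6.45% of all rows. Counts so near that share do not tell whether TGFB left the contrast of these lists unchanged.

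When all 3 ligands were present, levels followed no single pattern. CCND1 was at 129 ± 9.86 CPM (n = 3) and KRT81 at 2910 ± 251, between OSM+TGFB and EGF+TGFB. HIF1A (1070 ± 18.2) was between them too, against means of 1489 and 346. SNAI1 (52.4 ± 4.82) was near OSM+TGFB, and DUSP4 (301 ± 14.6) and FDPS (703 ± 27.6) near EGF+TGFB. VEGFA (459 ± 19.8), LAMA3 (9359 ± 670) and IL6 (14.2 ± 1.6) were above both pair means, and KRT4 (0.13 ± 0.0407) and INHBA (5.65 ± 0.696) below both. No test was made of these levels.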

How the data were processed

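RNA-seq of 27 MCF10A libraries, 9 groups of 3, was used, taken from the treatment labels. The authors deposited estimated counts for 40487 gene rows. Every value was whole, so rounding changed nothing. Per the submitters' processing notes, the tools were FastQC 0.11.5, Trim Galore 0.4.3 with cutadapt 1.10, kallisto 0.46.2 and R 3.5.0, with builds GRCh38.p5 and hg38. Their settings are not given in the sources used here. Pseudoalignment divides reads among near-identical genes, which limits families such as SPRR, KRT6 and HLA. The 7165 rows without a symbol held 0.324% of counts. Those that passed the low-count filter stayed in library sizes and tests, but none was named or entered a gene list.

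All 27 libraries were fitted together with edgeR 4.0.16 and limma 3.58.1 in R 4.3.3: filterByExpr (16611 rows kept), TMM scaling, prior count 0.125, robust quasi-likelihood test, 18 residual degrees of freedom, and Benjamini-Hochberg adjustment over all rows, with a threshold of 0.05. The code was checked on simulated data. Alternatives were DESeq2 1.42.0 size factors and Wald test, upper-quartile scaling, no low-count filter, a replicate block, only the libraries of the contrast, rows of a symbol summed, and leaving out each library.

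Named genes were the 15 largest rises and 15 largest falls among called, protein-coding rows with non-overlapping groups and a mean of at least 5 CPM in the higher group, the 10 most positive and 10 most negative differences with and without TGFB, the 6 largest CPM differences, the ligands' receptors and members of the gene lists. The differences were ranked among protein-coding rows called for the difference. These rows had groups not overlapping with or without TGFB, and a mean of at least 5 CPM in OSM+TGFB, EGF+TGFB, OSM or EGF. A symbol with several rows entered by its most abundant row. The comparison, members and lists were chosen with earlier results of these data known. Promoters are from RefSeq (GRCh38.p14) and gene coordinates from GENCODE v44 (GRCh38). Figures were drawn with Python 3.11.15 and matplotlib 3.10.9. Some genes that the rule or the lists would name are not reported here.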

Additional observations from a re-analysis of the deposited data

Results flagged for a closer look

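Listed here are the 10 most positive and 10 most negative genes by the difference of the OSM-EGF contrast between cells with and without TGFB. Passing the test of that difference was a condition of choosing them, so their adjusted p-values are no separate support. Values are differences of log2 fold changes, with minus without TGFB, and adjusted p from edgeR's quasi-likelihood test. The test over all rows called 517 positive and 554 negative differences.

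On the positive side, the metalloproteinases MMP13 and MMP10 differed by 2.82 (adjusted p = 0.022) and 2.25 (adjusted p = 0.0098). MMP13 was higher with OSM in both settings (4.60 with and 1.78 without TGFB), and MMP10 lower in both (-1.002 and -3.25). Without TGFB MMP13 was low, at 1.04 ± 0.594 CPM in OSM and 0.301 ± 0.0872 in EGF (SD, n = 3 each). With OSM+TGFB it read 14.5, 13.6 and 4.41 CPM, not called different from TGFB alone (14.6 ± 1.27 CPM, log2 fold change -0.43, adjusted p = 0.37). EGF+TGFB was lower than TGFB alone (-5.02). The MMP13 call was lost without EGF replicate 2 (2.66, adjusted p = 0.076) or EGF replicate 3 (2.73, adjusted p = 0.066). The kinase MAPK4 differed by 2.63 (adjusted p = 1.7e-06), the sorting receptor SORL1 by 1.93 (adjusted p = 3.5e-08), the pump subunit ATP1B1 by 1.88 (adjusted p = 9.5e-09) and the insulin receptor substrate IRS1 by 1.82 (adjusted p = 1.2e-06). BMF, a BH3-only protein, differed by 2.28 (adjusted p = 0.00045) and IVL, involucrin, by 2.18 (adjusted p = 3.9e-06). LDLRAD4, a membrane inhibitor of TGFB signalling, differed by 1.84 (adjusted p = 3e-04), with 1.69 with and -0.15 without TGFB. GABRE, a GABA receptor subunit, differed by 1.83 (adjusted p = 0.0065), with 3.11 and 1.28.

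On the negative side, CXCR1 differed by -3.43 (adjusted p = 8e-07) and the feedback inhibitor SOCS3 by -2.43 (adjusted p = 1.3e-07). The secreted proteases ADAMTS1, ADAMTS9 and PRSS23 differed by -2.48 (adjusted p = 0.00036), -2.45 (adjusted p = 0.00018) and -1.73 (adjusted p = 2.5e-06). The cytokines IL6 and TGFB2 differed by -2.41 (adjusted p = 0.011) and -1.82 (adjusted p = 0.0035). IL6 lost its call without OSM replicate 1 (-2.02, adjusted p = 0.13). The transcription factors SNAI1 and TP73 differed by -2.17 (adjusted p = 1.6e-06) and -1.73 (adjusted p = 0.012), and the membrane repair protein DYSF by -2.25 (adjusted p = 1.6e-06).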

How the results depend on the processing

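The number of rows called between OSM+TGFB and EGF+TGFB was 9190 and lay between 8396 and 9576 under all 13 alternatives, and between 8396 and 8894 when a library was left out. DESeq2's Wald test gave 9132 and, for the difference with and without TGFB, 1384 against 1071. OSM against EGF gave 8235 to 9236 calls when a library was left out. The difference gave 765 to 1265, of which 373 to 749 were positive and 311 to 526 negative. Fitted on its 12 libraries only, it gave 260 positive calls of 890. The library shares kept their direction, with -0.239 to -0.107 percentage points for mitochondrial transcripts and 0.618 to 1.03 for the 10 most abundant rows. Of the gene lists, the median of the NRF2 genes ran from -0.023 to 0.34 when a library was left out, negative without OSM+TGFB replicate 2. The genes whose sign turned were all near 0 and not called: with no low-count filter DUSP6 was at -0.013, MYC at -0.019, SREBF1 at -0.0196, SREBF2 at -0.036 and VIM at -0.043. With DESeq2 size factors or its Wald test SREBF2 was at -0.014 and VIM at -0.021, and VIM was at -0.00098 on the 6 libraries only. Leaving out a library gave -0.074 to 0.13 for ACTA2, -0.15 to 0.054 for CDKN1A, -0.042 to 0.063 for DUSP6, -0.057 to 0.098 for MYC, -0.23 to 0.027 for NRG1, -0.081 to 0.14 for SREBF1, -0.056 to 0.019 for SREBF2 and -0.076 to 0.0031 for VIM. On the libraries of the contrast only, the calls of PSMB8 (adjusted p = 0.078) and EGF (-1.06, adjusted p = 0.054) were lost, as were those of the differences of GABRE (adjusted p = 0.058) and MMP13 (adjusted p = 0.13). With no filter those of ERBB3 (adjusted p = 0.12), MCL1 (adjusted p = 0.13) and EGF (adjusted p = 0.068) were lost, as was that of COL1A1 (adjusted p = 0.12), and the MMP13 difference had an adjusted p of 0.053. DESeq2's Wald test did not call EGF (-1.095, adjusted p = 0.075). The cause of these shifts was not tested.

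Same-numbered OSM+TGFB and EGF+TGFB libraries deviated together with r = 0.0262, 0.0701 and 0.0928 across rows, and 5 of these 6 libraries correlated best with their own number. In the other contrasts the 3 same-number values were 0.0969, 0.105 and 0.118 for OSM and EGF, 0.0887, 0.103 and 0.158 for OSM+TGFB and OSM, and 0.0397, 0.102 and 0.0745 for EGF+TGFB and EGF. All 12 were positive, and in these other contrasts each library correlated best with its own number. In no contrast were all 3 above 0.1, so the numbers were not taken as pairs in the main fit. Whether same-numbered libraries shared a batch was not tested. With the replicate number as a block, 9576 rows were called between OSM+TGFB and EGF+TGFB and 9417 between OSM and EGF. The difference with and without TGFB rose to 1809 calls, 820 positive and 989 negative. LCN2 (adjusted p = 0.0025) and SNAI2 (adjusted p = 0.042) were called with the block only, and EREG with the block (adjusted p = 0.022) and with DESeq2 (adjusted p = 0.039).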

Other observations

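Genes of the translation machinery also separated the treatments. These groups were chosen after their values were seen, so their counts are descriptions. Of 82 tested cytoplasmic ribosomal protein genes, 79 were higher with OSM+TGFB and 0 lower, with a median log2 fold change of 0.56. Together they held 68184 to 70030 CPM in the OSM+TGFB libraries and 45672 to 47146 in the EGF+TGFB libraries, without overlap. All 5 tested translation elongation factors were higher as well, with a median of 0.54.

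The mitochondrial ribosome did not follow the cytoplasmic one. Of 75 tested mitochondrial ribosomal protein genes, 8 were higher and 42 lower with OSM+TGFB, with a median of -0.20. Ribosome biogenesis factors, which assemble cytoplasmic ribosomes in the nucleolus, were lower in 19 of 24 and higher in 1, with a median of -0.39. Without TGFB, OSM against EGF gave the same directions: 79 cytoplasmic ribosomal protein genes were higher and 0 lower (median 0.60), and 19 biogenesis factors were lower and 0 higher (median -0.38). Over all rows tested with edgeR, 27.7% were called higher and 27.6% lower with TGFB, and 26.8% higher and 27.6% lower without TGFB.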
